A study of Mus musculus with 48 samples.

Results

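The vascular tone genes described here are 9 of the 24973 genes in the deposited expression table, and each was found by its symbol. They are the endothelin ligands Edn1 and Edn3, the endothelin converting enzyme Ece1, the endothelin receptors Ednra and Ednrb, the nitric oxide synthases Nos3 and Nos2, and the Krüppel-like transcription factors Klf2 and Klf4. Expression was measured by bulk RNA-Seq in microglia (MG), astrocytes (AC), pericytes (PC) and endothelial cells (EC) sorted from the same brain tissue of male wild-type C57BL/6 mice aged 12 to 15 weeks. All mice had undergone right transient middle cerebral artery occlusion (tMCAO) for 1 h and were killed 24 h after occlusion. The ipsilateral (ischemic) hemisphere was compared with the contralateral hemisphere of the same mice, which served as control, so the control tissue also came from brains with a stroke and no sham-operated group enters any value below.

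There were 8 groups, contralateral (c) and ipsilateral (s) for each of the 4 cell types, with 6 libraries each. Every library was made from the pooled hemispheres of 3 to 4 mice, and mice below a preset neurological deficit score had been left out. MG were gated as CD45low/CD11b+ cells and AC as CD45-/ACSA2high cells negative for the vascular markers. EC were gated as CD45-/ACSA2-/VECAD+ cells, and PC as VECAD- cells positive for both NG2 and PDGFRβ, a gate that smooth muscle cells can also pass. For 12 ipsilateral libraries the sample titles exchange PC and MG against the column names of the table. The column names were followed, and each group of libraries carried the markers of the cell type in its column name: the sum of 4 pericyte markers (Pdgfrb, Des, Cd248 and Cspg4) was 34058 to 90625 normalized counts in sPC and 102 to 1865 in sMG.

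The files give normalized counts, which are reads per gene divided by a scaling factor for each library and rounded to whole numbers. The 48 libraries summed to between 10549900 and 16942165 normalized counts, and the steps between low values put their depth at about 4900000 to 16600000 reads on genes. A floor of 3 reads was worth 2.01 to 7.10 normalized counts. RNA of other cells was measurable in most sorts. In AC, 5 oligodendrocyte markers summed to between 34808 and 383698 normalized counts. The 4 astrocyte markers summed to 57129 to 114614 in cAC and 41095 to 121715 in sAC. Microglial markers in sPC reached 5.04% to 23.7% of their MG level in replicates 1 to 4 and 0.223% and 0.232% in replicates 5 and 6. In bulk samples like these, a gate that holds fewer cells of a type and cells that hold less RNA of a gene cannot be told apart.

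Endothelins are vasoactive peptides that are released as inactive precursors and cut to their active form by endothelin converting enzymes. The type A receptor on mural cells mediates contraction, and the type B receptor mediates release of nitric oxide from endothelium, clears the peptide, and is also found on astrocytes. Nitric oxide made by endothelial nitric oxide synthase relaxes mural cells through cyclic GMP. Klf2 and Klf4 are induced in endothelium by laminar flow through a kinase cascade that ends at MEF2 factors, and they favor expression of Nos3 over that of Edn1.

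Among the genes described here, Ednrb had the one change called when the hemispheres were not paired. Edn1, Klf2 and Klf4 are joined by the flow pathway just described. The sequences before a RefSeq start of these 4 genes are therefore shown. Each is the 250 bases before that start on the sense strand (build GRCm38.p6), with any match to 1 of 5 motifs in capitals, on either strand. The last 29 bases were left out for Klf2, since GENCODE M21 places them in its first exon. The RefSeq start used for Ednrb lies 472 bases inside the gene as counted in the expression table, so its window lies within that gene, between exons of GENCODE M21, and not upstream of its outermost start. For AP-1, the transcription factor formed by Fos and Jun proteins, the letters searched were TGANTCA. The site of MEF2 factors, which act upstream of Klf2 and Klf4 in endothelium, was searched as CTANNNNTAG. The core of the hypoxia response element was searched as ACGTG. The CACC box, which Krüppel-like factors themselves bind, was searched as CACCC. The site of GATA factors was searched as AGATAA. The Ednrb sequence lies at chr14:103843702-103843951 on the minus strand, that of Edn1 at chr13:42301226-42301475 on the plus strand, that of Klf2 at chr8:72318812-72319032 on the plus strand, and that of Klf4 at chr4:55532476-55532725 on the minus strand.
Ednrb: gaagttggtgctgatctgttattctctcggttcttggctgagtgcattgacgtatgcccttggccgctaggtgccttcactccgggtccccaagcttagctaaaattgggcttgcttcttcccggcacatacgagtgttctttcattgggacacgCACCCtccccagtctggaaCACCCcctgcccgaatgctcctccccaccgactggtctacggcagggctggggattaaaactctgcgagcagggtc
Edn1: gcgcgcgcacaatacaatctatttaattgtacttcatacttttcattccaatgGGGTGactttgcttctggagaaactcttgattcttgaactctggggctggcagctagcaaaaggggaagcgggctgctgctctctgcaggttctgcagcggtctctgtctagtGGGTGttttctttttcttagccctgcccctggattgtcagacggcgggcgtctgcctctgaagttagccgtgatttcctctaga
Klf2: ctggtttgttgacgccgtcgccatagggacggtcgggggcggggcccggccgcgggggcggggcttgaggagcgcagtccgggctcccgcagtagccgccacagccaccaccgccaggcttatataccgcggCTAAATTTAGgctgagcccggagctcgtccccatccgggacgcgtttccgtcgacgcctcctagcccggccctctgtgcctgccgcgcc
Klf4: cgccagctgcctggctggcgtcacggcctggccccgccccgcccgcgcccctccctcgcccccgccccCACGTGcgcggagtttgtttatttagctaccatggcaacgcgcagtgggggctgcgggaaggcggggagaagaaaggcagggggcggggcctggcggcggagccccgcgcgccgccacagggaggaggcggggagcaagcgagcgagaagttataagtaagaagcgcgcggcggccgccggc
The MEF2 letters stood in the Klf2 sequence, starting 118 bases before the start, and in 3.20% of 32851 such sequences in the table. Klf4 held the hypoxia letters, present in 16.6% of all sequences, as an overlapping pair of matches on opposite strands. CACC boxes occurred at 2 places each in the windows of Ednrb and Edn1, and at least 1 occurred in 52.0% of all sequences. Neither the AP-1 letters (6.75% of all sequences) nor the GATA letters (9.99%) occurred in these 4 windows. A match is a run of letters and does not show that a factor binds there. Of the 9 genes, 7 had an entry in the RefSeq table.

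The genes that make endothelins and nitric oxide were expressed chiefly by endothelial cells in the contralateral hemisphere, whereas the 2 receptors were highest outside endothelium, Ednra in pericytes and Ednrb in astrocytes. Normalized counts per kilobase of exon allow levels of different genes to be set side by side. The exon lengths were those of GENCODE M21, in which the coordinates of Ednra and Ednrb differ from those of the expression table. On that scale the contralateral EC medians were 6346 for Klf2, 2019 for Ece1, 1460 for Edn1, 1396 for Nos3, 1017 for Klf4, 582 for Edn3, 51.6 for Ednrb, 29.7 for Nos2 and 0.91 for Ednra. The highest medians of the receptors per kilobase were 694 for Ednra in cPC and 1672 for Ednrb in cAC.

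Levels between cell types were compared with limma over all 48 libraries and called where the p, adjusted after Benjamini and Hochberg, was no higher than 0.05 and the fold no smaller than 1.5. Such calls were common over all genes tested: 34.6% of genes for EC against PC, 49.1% for EC against AC, 41.6% for EC against MG, 45.4% for PC against AC, 48% for PC against MG and 50.7% for AC against MG. Of the 9 vascular tone genes, 8, 9, 7, 5, 3 and 5 were called in the same order. Edn1, Edn3, Ece1, Nos3, Nos2, Klf2 and Klf4 were called higher in EC than in each of the other 3 cell types.

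**Figure D1:**
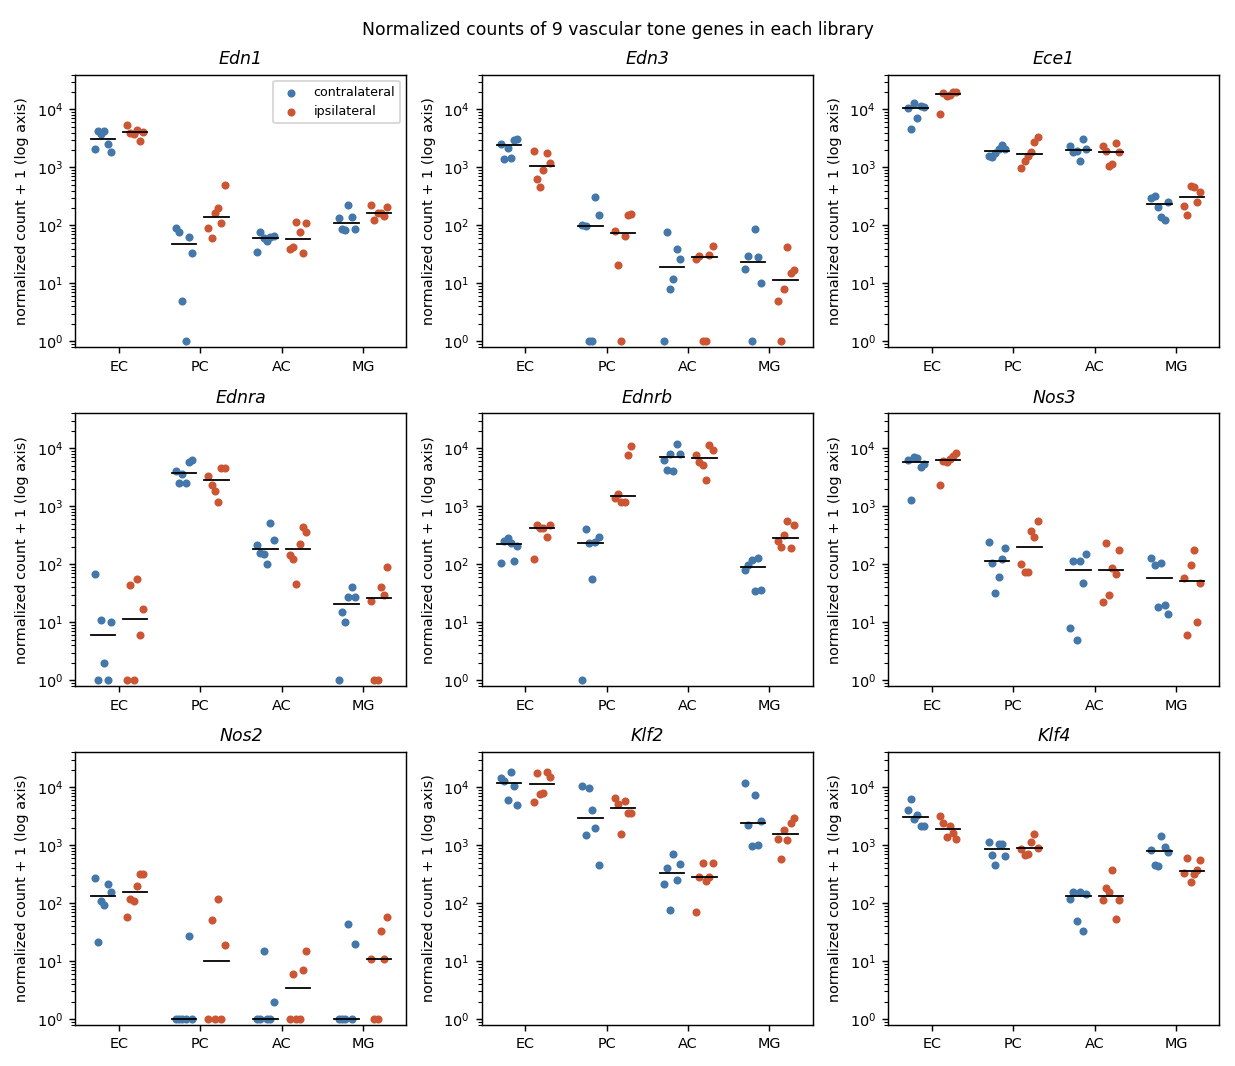
Normalized counts plus 1 of the 9 genes (y axis, logarithmic) in every library of EC, PC, AC and MG (x axis), with contralateral libraries in blue, ipsilateral libraries in orange and black bars at the median of 6 libraries. Edn1, Edn3, Ece1, Nos3, Klf2 and Klf4 sit highest in EC, Ednra in PC and Ednrb in AC, and the ipsilateral PC points of Ednrb (1187 to 11127) lie above all contralateral PC points (0 to 409).

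Coordinates of genes are those of build GRCm38 (mm10). Edn1 (chr13:42301476-42307990, plus strand), the gene of the strongest vasoconstrictor of the family, was highest in EC. Its normalized counts in cEC ran from 1864 to 4331 with a median of 3122.5, and those in sEC from 2893 to 5496 with a median of 4048.5. The ranges overlapped, and 5 of 6 pairs of same-numbered libraries were higher ipsilaterally. The stroke change was 0.46 on the log2 scale (SE 0.25), with a limma adjusted p of 0.506, so it did not pass the test.

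Outside EC, Edn1 was low. Its contralateral medians were 47.5 in PC, 60 in AC and 108.5 in MG. MG exceeded PC by 2.50 on the log2 scale (limma adjusted p = 0.000668), and MG and AC were not called different. In cMG the Edn1 level was 2.63% to 7.08% of the cEC median, above the endothelial marker share (0.359% to 1.71%) in 6 of 6 libraries. In cAC it was also above that share in 6 of 6 (1.09% to 2.43% against 0.221% to 1.86%). In cPC it was below that share in 6 of 6 (0% to 2.91% against 1.12% to 4.26%). In PC, Edn1 went from 0 to 91 contralaterally to 60 to 506 ipsilaterally (log2 fold change 2.84, SE 1.05, limma adjusted p = 0.213), with 4 of 6 pairs higher. The highest value, 506 in sPC replicate 6, came from the library with the highest endothelial marker share in that group, 8.92%, against 1.81% to 3.10% in the other 5. The Edn1 percentage of the sEC median exceeded the endothelial marker share in 4 of 6 sPC libraries, replicate 6 included (12.5%). The part of endothelial RNA in this difference was not tested.

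Edn3 (chr2:174760619-174784042, plus strand), a ligand of the type B receptor, had lower ipsilateral values in EC that did not pass the test. Its level in cEC was 1417 to 3063 with a median of 2393, and in sEC 453 to 1898 with a median of 1046.5. All 6 pairs were lower ipsilaterally, although the ranges overlapped between 1417 and 1898. Ipsilateral Edn3 in EC differed by a log2 fold change of -1.11 (SE 0.36), with an unadjusted p of 0.00732 and an adjusted p of 0.199 from limma over 13242 genes, and it was not called under any of 17 alternatives (adjusted p 0.0958 to 0.79). In the other cell types Edn3 medians lay between 10.5 and 98.5 in all 6 groups and the groups overlapped.

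Ece1 (chr4:137862237-137965229, plus strand) cleaves the endothelin precursors. Its cEC values were 4612 to 12722 with a median of 10702.5, and its sEC values 8434 to 20048 with a median of 18454.5. In sEC, 5 of 6 libraries lay above every cEC library, and the remaining one, replicate 1 at 8434, fell within the contralateral range. With 5 of 6 pairs higher, the log2 fold change of Ece1 was 0.865 (SE 0.29), with an unadjusted p of 0.0102 and a limma adjusted p of 0.231. Ece1 was also measurable in PC and AC, at contralateral medians of 1905.5 and 2010, or 17.8% and 18.8% of the cEC median, where endothelial markers stood at 2.70% and 1.01% of theirs. It was lower in MG (median 229), by 3.15 against PC and 3.28 against AC on the log2 scale (limma adjusted p = 4.57e-12 and 1.59e-12).

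Ednra (chr8:77663031-77724436, minus strand), the type A receptor, was highest in PC. Contralateral PC held 2481 to 6253 normalized counts with a median of 3801.5, against 99 to 512 in cAC, 0 to 39 in cMG and 0 to 66 in cEC. PC exceeded AC by 4.25, MG by 8.23 and EC by 9.60 on the log2 scale (limma adjusted p = 0.000609, 4.3e-09 and 1.99e-10), and EC and MG were not called different. The AC level was 2.6% to 13.5% of the cPC median, beside pericyte markers at 2.04% to 8.37% in those libraries.

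After stroke, sPC held 1177 to 4502 with a median of 2803.5. Every one of the 6 pairs was lower ipsilaterally, with pair differences from -1.08 to -0.096 on the log2 scale, and the ranges overlapped over most of their length. In the fit this gave a log2 fold change of -0.54 (SE 0.35, limma adjusted p = 0.481), which was not called. The sum of 6 smooth muscle markers in the same libraries was 351827 to 539995 in cPC and 165279 to 363147 in sPC. Its part in the Ednra values was not tested.

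Ednrb (chr14:103814625-103844173, minus strand), the type B receptor, was the only one of the 9 genes called for the stroke change without pairing the hemispheres. That call was in microglia. With the pool of mice as a block, Ednrb was also called in PC, and Klf4 in MG with an estimated correlation, as given below. The Ednrb level in cMG was 34 to 129 normalized counts with a median of 88, and in sMG 188 to 546 with a median of 283. The 2 groups did not overlap and 6 of 6 pairs were higher ipsilaterally. The log2 fold change was 2.06 (SE 0.41, 95% confidence interval 1.183 to 2.935), with a limma adjusted p of 0.00583. Of all 13300 genes tested in MG, 10.6% were called, so 1 of 9 is close to the background share.

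The call in MG was kept when any single replicate was left out (adjusted p 0.00428 to 0.0352) and with replicates 1 to 4 alone (0.0361). It was not reached in a joint fit of 48 libraries (adjusted p = 0.107), and the 17 alternatives that keep the column names spanned 0.00407 to 0.107. Relative to the astrocyte median of the same hemisphere, Ednrb stood at 0.477% to 1.81% in cMG and 2.80% to 8.13% in sMG, and the sum of 4 astrocyte markers at 3.33% to 4.22% and 1.10% to 1.64%. That sum was mostly Slc1a3, a glutamate transporter, which made up 92.9% of it in cMG and was called lower in sMG (log2 fold change -1.62, limma adjusted p = 0.000241). The other 3 markers (Gfap, Aqp4 and Aldh1l1) were not called and summed to 0.443% to 1.67% of their astrocyte median in cMG and 0.263% to 2.17% in sMG. The Ednrb percentages in cMG thus overlapped those of these 3 markers, and in sMG they exceeded them in 6 of 6 libraries. The markers were split after their values were seen. Neutrophil markers summed to 90 to 1070 in cMG and 1575 to 18833 in sMG, monocyte and border macrophage markers to 249 to 1398 and 1192 to 4121, and the 4 microglial markers to 180699 to 227678 and 91419 to 163197. The part of these cells in the Ednrb difference was not tested.

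**Figure D2:**
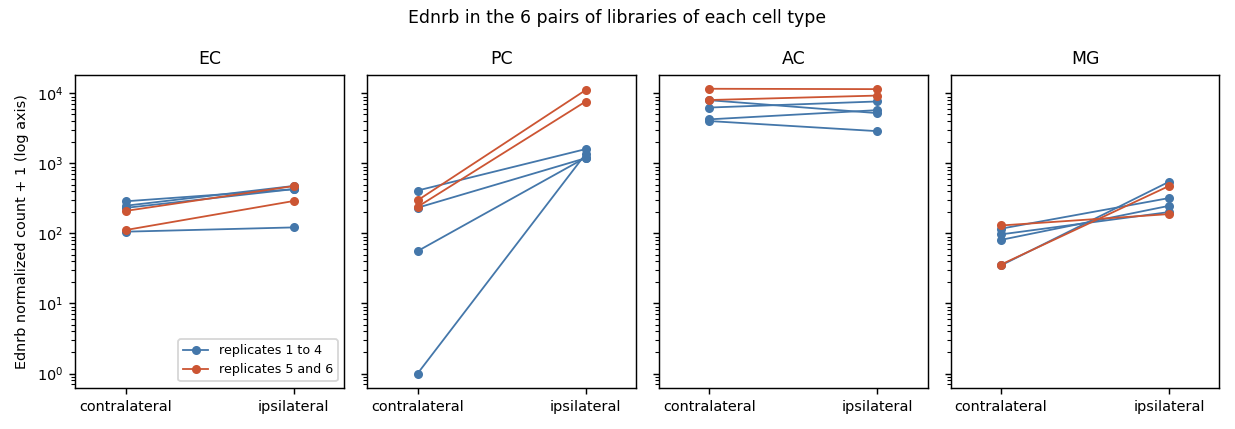
Ednrb normalized counts plus 1 (y axis, logarithmic) in the contralateral and ipsilateral library of each of 6 replicate numbers, joined by a line, for EC, PC, AC and MG, with replicates 1 to 4 in blue and 5 and 6 in orange. All 6 lines rise in EC, PC and MG, and in AC 3 rise and 3 fall.

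The largest difference in Ednrb was in pericytes, where the values spread widely and the limma fit without pairing did not call it. Contralateral PC held 0, 409, 232, 55, 239 and 296 normalized counts in replicates 1 to 6, and ipsilateral PC 1363, 1599, 1187, 1209, 7634 and 11127. The lowest sPC value was above the highest cPC value, and 6 of 6 pairs were higher by 1.96 to 10.41 on the log2 scale. In the fit the difference was 4.90 on the log2 scale (SE 1.25, 95% confidence interval 2.21 to 7.59), with an unadjusted p of 0.00161 and an adjusted p of 0.081. Of 13597 genes tested in PC, 1.02% were called.

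Libraries of the same replicate number were taken as the 2 hemispheres of one pool. With the pool as a block the Ednrb difference in PC passed (limma adjusted p = 0.0399 with an estimated correlation and 0.04 with a term for each pair). It also passed with a pseudocount of 10, in the joint fit of 48 libraries and without replicate 1, whose contralateral library is listed at 0, and over 17 alternatives that keep the column names the adjusted p ran from 0.000206 to 0.256. With replicates 1 to 4 alone the mean pair difference was 4.79 on the log2 scale (adjusted p = 0.181). That mean was raised by replicate 1, at 10.41 with its contralateral library listed at 0. Replicates 2, 3 and 4 stood lower, at 1.96, 2.35 and 4.43, and replicates 5 and 6 at 4.99 and 5.23. The 4 astrocyte markers stood at 0.207% to 0.871% of their AC level in sPC, and without Slc1a3 at 0.377% to 1.04%, while Ednrb stood at 17.7% to 166% of the sAC median. Replicates 5 and 6, highest in Ednrb, had the least microglial marker RNA of the sPC libraries. Oligodendrocyte precursor markers summed to 78 to 2035 in cPC and 70 to 1530 in sPC, and fibroblast markers to 3059 to 10077 and 5861 to 12012. Smooth muscle markers summed to 351827 to 539995 in cPC and 165279 to 363147 in sPC. Endothelial markers stood at 1.12% to 4.26% of their EC level in cPC and 1.81% to 8.92% in sPC, highest in replicate 6. The part of these cells in the Ednrb difference in PC was not tested.

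**Figure D3:**
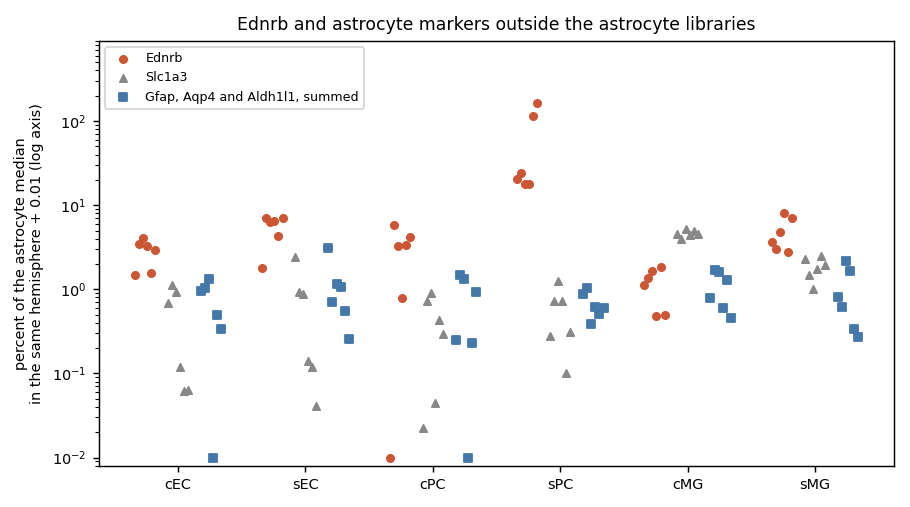
Ednrb (orange circles) the astrocyte marker Slc1a3 (gray triangles) and the sum of the markers Gfap, Aqp4 and Aldh1l1 (blue squares) in each EC, PC and MG library, as percent of the astrocyte median of the same hemisphere plus 0.01 (y axis, logarithmic). In sPC the 6 Ednrb values (17.7% to 166%) lie above all marker values, and in cMG they lie below Slc1a3 (3.97% to 5.21%) and overlap the other 3 markers (0.443% to 1.67%).

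Set beside Ednra per kilobase of exon, Ednrb made up 0% to 17.5% of the summed level of both receptors in cPC (median 5.4%) and 34.8% to 76.0% in sPC (median 51.9%). The ranges did not overlap. In AC, the share was 96.7% to 98.6% contralaterally and 94.4% to 99.3% ipsilaterally, so type B made up nearly all endothelin receptor RNA in both hemispheres. In cEC the share was 67.1% to 100% (median 98.5%) and in sEC 90.9% to 100% (median 98.1%), at much lower levels of both receptors. Ednra was only 0 to 66 normalized counts in cEC and 0 to 55 in sEC, so these shares are loosely determined.

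In EC, Ednrb was 105 to 287 contralaterally (median 220) and 121 to 476 ipsilaterally (median 428), higher in 6 of 6 pairs with overlapping ranges (log2 fold change 0.86, SE 0.40, limma adjusted p = 0.41). In AC, where its level was 6.27 above PC, 5.14 above EC and 6.49 above MG on the log2 scale (limma adjusted p = 5.12e-09, 3.01e-07 and 1.68e-09), it was 4025 to 11636 in cAC (median 7133) and 2888 to 11501 in sAC (median 6716). Between the hemispheres the AC difference was -0.03 on the log2 scale, with a 95% confidence interval from -0.755 to 0.70. In cAC and sAC alike, replicate 4 had the lowest Ednrb (4025 and 2888) and the highest oligodendrocyte marker sum (310365 and 383698). The part of oligodendrocyte RNA in the AC values, which also served as reference for the percentages above, was not tested. The contralateral levels in EC, PC and MG were not called different from each other. The difference between cell types in the Ednrb change was tested by interaction contrasts: the change in PC exceeded that in AC by 4.925 (SE 1.10) and that in MG by 2.84 on the log2 scale, and the change in EC minus that in PC was -4.04, with limma adjusted p = 0.118, 0.252 and 0.217, none past the threshold. Of 10 alternatives for PC against AC that keep the column names, 2 were called (adjusted p from 0.00847 to 0.394), with a pseudocount of 10 and without replicate 1.

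Nos3 (chr5:24364810-24384474, plus strand), the endothelial synthase, was 1262 to 7021 in cEC with a median of 5768.5 and 2336 to 8364 in sEC with a median of 6358. One library in each hemisphere stood low, cEC replicate 2 at 1262 and sEC replicate 1 at 2336. Stroke went with a log2 fold change of 0.31 (SE 0.41, 95% confidence interval -0.57 to 1.19, limma adjusted p = 0.828), with 3 of 6 pairs higher, and without replicate 2 it was -0.08. Outside EC, Nos3 medians were 51.5 to 198 normalized counts over the 6 groups. They were 0.81% to 3.11% of the EC median of the same hemisphere, beside endothelial marker medians of 0.961% to 2.70%, and PC, AC and MG were not called different from each other contralaterally.

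Nos2 (chr11:78920787-78960254, plus strand), the inducible synthase of inflammatory cells, stayed low in every sort, including ipsilateral microglia. It was 20 to 266 in cEC (median 131) and 57 to 312 in sEC (median 157.5), with a log2 fold change of 0.49 (SE 0.62, limma adjusted p = 0.814). In cMG, 4 of 6 libraries were listed at 0 and the others at 19 and 43. In sMG the values were 0 to 57 with a median of 10 (log2 fold change 1.34, SE 1.35, limma adjusted p = 0.537). In AC the mean of 12 libraries was below 10, and Nos2 was not tested there.

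Klf2 (chr8:72319033-72321656, plus strand) varied widely between libraries of one group. It was 4963 to 18011 in cEC with a median of 11720.5 and 5569 to 18298 in sEC with a median of 11434.5, nearly the same range. In EC the log2 fold change was 0.10 (SE 0.38, 95% confidence interval -0.72 to 0.92, limma adjusted p = 0.957). In replicates 1 to 4 alone it was -0.44, and in replicates 5 and 6 the pair differences were 0.79 and 1.59. In cPC it ran from 461 to 10450 and in cMG from 978 to 11838, so the highest pericyte and microglial libraries reached the endothelial range. EC exceeded PC by 1.82 and MG by 1.84 on the log2 scale (limma adjusted p = 0.0162 and 0.0124), and both calls were lost with replicates 1 to 4 alone (0.209 and 0.0771). PC and MG were not called different. In MG, Klf2 was 575 to 2993 ipsilaterally (log2 fold change -0.89, SE 0.58, limma adjusted p = 0.33).

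Klf4 (chr4:55527143-55532466, minus strand) was 2111 to 6241 in cEC with a median of 3100 and 1257 to 3152 in sEC with a median of 1894. All 6 pairs were lower ipsilaterally and the ranges overlapped. The log2 fold change was -0.75 (SE 0.30), with an unadjusted p of 0.0237 and a limma adjusted p of 0.323, and it was not called under any of 17 alternatives (0.137 to 0.63). In PC it was 452 to 1150 contralaterally and 674 to 1565 ipsilaterally, and in AC 32 to 157 and 53 to 368, with log2 fold changes of 0.24 and 0.565 that did not pass.

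In MG, Klf4 was 444 to 1414 contralaterally (median 798.5) and 234 to 610 ipsilaterally (median 352), lower in 5 of 6 pairs. The log2 fold change was -0.96 (SE 0.31) with a limma adjusted p of 0.0575. It passed with the pool as a block and an estimated correlation (0.0409), with a filter at a mean of 50 (0.0487) and without replicate 2 (0.0126), and not with a term for each pair (0.0662). Over 17 alternatives that keep the column names the adjusted p ran from 0.0126 to 0.204. Of 13 immediate early genes, which tissue dissociation can induce, 4 were called lower in the same libraries, beside 10.6% of all genes called there: Fosb, Fos, Egr1 and Jun, with log2 fold changes of -1.55, -0.86, -1.29 and -1.70. The other 9 did not pass, among them Ier3 at 0.12, and the list summed to 240183 to 639559 in cMG and 145681 to 247352 in sMG. In EC the sums were 116918 to 329975 and 116473 to 228643. The part of dissociation in the Klf4 values was not tested.

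**Figure D4:**
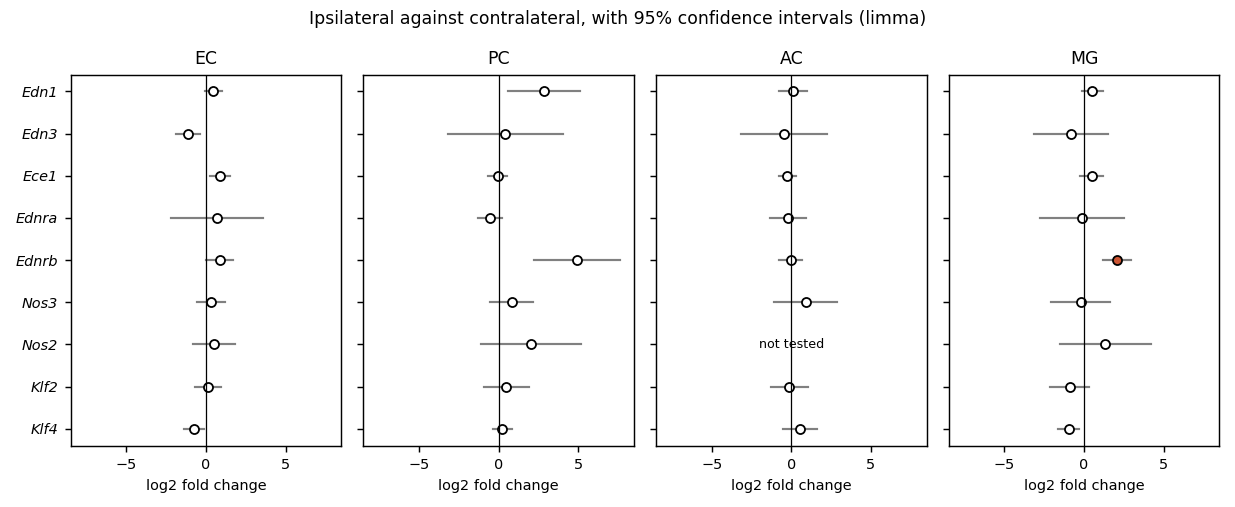
Log2 fold change of each gene, ipsilateral against contralateral, from limma with 6 libraries per hemisphere and no pairing, with lines for the 95% confidence interval. The filled point is Ednrb in MG (2.06), the one called, and open points did not pass, including Ednrb in PC (4.90), whose interval of 2.21 to 7.59 is among the wider ones.

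Counted over all 9 genes, the limma test called 0 in EC, where 0.491% of all genes were called, 0 in PC, 0 of the 8 tested in AC, where 0.341% were called, and 1 in MG. At an unadjusted p below 0.05 there were 4 in EC (Edn3, Ece1, Ednrb and Klf4), 2 in PC (Edn1 and Ednrb), 0 in AC and 2 in MG (Ednrb and Klf4), where 11.9%, 15.4%, 9.28% and 28% of all genes tested stood at such a p. With the pool as a block and an estimated correlation the counts of these 9 genes were 0, 1, 0 and 2, and those of all genes went from 65 to 104 in EC, from 139 to 288 in PC, from 52 to 217 in AC and from 1404 to 1775 in MG. No gene of the 9 was called in any of 6 limma tests of a difference in stroke change between cell types, in which 0.0267% (EC against PC), 0.06% (EC against AC), 0.273% (EC against MG), 0.00667% (PC against AC), 0.727% (PC against MG) and 0.293% (AC against MG) of genes were. At an unadjusted p below 0.05 these tests held 3, 2, 0, 2, 3 and 1 of the 9, and 7.95%, 5.45%, 11%, 6.2%, 12.7% and 8.4% of all genes.

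Whether endothelial libraries high in one of the flow-responsive genes were also high in another was examined over 12 EC libraries, after the mean of each hemisphere was removed, for 6 pairs of genes. Klf2 showed little relation to Klf4 (Pearson r = 0.13, Spearman rho = 0.126), to Edn1 (-0.009 and 0.056) or to Nos3 (0.178 and 0.308), with permutation p between 0.331 and 0.977. Klf4 and Nos3 gave r = -0.715 (permutation p = 0.00845, adjusted 0.0507) but rho = -0.336 (permutation p = 0.285, adjusted 0.662), and r became 0.106 without cEC replicate 2 and sEC replicate 1. The relation rested on those 2 libraries, which were the lowest of their groups in Nos3. Klf4 and Edn1 gave r = 0.545 and rho = 0.531 (permutation p = 0.0695 and 0.0801, adjusted 0.209 and 0.481), with r = 0.23 without the same 2 libraries. Edn1 and Nos3 gave r = -0.457 and rho = -0.105 (permutation p = 0.138 and 0.749, adjusted 0.277 and 0.869), with r = -0.258 without cEC replicates 2 and 6. Within replicates 1 to 4 (8 libraries) r ranged from -0.808 for Klf4 with Nos3 to 0.3 for Klf4 with Edn1.

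Genes whose levels over all 48 libraries were most like those of each gene were looked up. Among 11853 genes with a mean of at least 50, the highest Pearson r were with Pecam1 (0.914) and Plk2 (0.9) for Edn1, Adgrf5 (0.902) and AU021092 (0.892) for Edn3, Vwa1 (0.955) and Sptbn1 (0.932) for Ece1, and Flt1 (0.957) and Vwf (0.956) for Nos3. Ednra was most like Zic4 (0.905) and Stim1 (0.904), and Ednrb like Syt12 (0.842) and Chst2 (0.838). Klf2 was most like Grap (0.872) and Rhoa (0.866), and Klf4 like Sertad1 (0.924) and 2810025M15Rik (0.907). The 48 libraries are not independent points, since those of one cell type share much of their level, and no test was made.

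For the lists of pathway genes around the 9, the shares of all genes to read the counts against were those given above: 0.491% called in EC, 1.02% in PC, 0.341% in AC and 10.6% in MG, and 11.9%, 15.4%, 9.28% and 28% at an unadjusted limma p below 0.05. None of the 13 other endothelin pathway genes (Edn2, converting and degrading enzymes, G proteins, phospholipases and kinases) was called in any cell type, with 4 of 12 tested at an unadjusted limma p below 0.05 in EC, 5 of 12 in PC, 1 of 12 in AC and 5 of 11 in MG. Their median log2 fold changes were -0.19, 0.03, -0.13 and -0.36, beside -0.03, -0.04, -0.06 and -0.18 over all genes. Of 22 nitric oxide and cyclic GMP genes, 3 calls were made, all higher: Slc7a1, which carries arginine into cells, in AC (from 138 ± 34.6 to 485 ± 82.4 normalized counts, mean ± SD, n = 6, limma adjusted p = 0.00174), and the arginases Arg1 (from 119 ± 95 to 614 ± 311) and Arg2 (from 8.17 ± 7.19 to 48.8 ± 26.5), which consume arginine, in MG (log2 fold changes 2.62 and 2.73, limma adjusted p = 0.00369 and 0.0182). None passed in EC or PC, where 5 of 21 and 8 of 22 had an unadjusted limma p below 0.05. The median log2 fold changes were -0.315, -0.06, -0.08 and 0.04 in EC, PC, AC and MG.

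Of 16 genes of the flow pathway upstream and downstream of Klf2 and Klf4, 2 were called in MG, a share near the 10.6% of all genes there, and 0 in EC, PC and AC. They were Thbd, a thrombomodulin gene that Klf2 is known to induce in endothelium, which was higher (41 ± 39.4 to 267 ± 197, log2 fold change 3.13, limma adjusted p = 0.0201) and Mef2c, a factor of that cascade, which was lower (6940 ± 998 to 3940 ± 827, -0.83, limma adjusted p = 0.00656). At an unadjusted p below 0.05 the list held 1 of 16 in EC, 3 in PC, 3 in AC and 5 in MG, and its medians were -0.105, -0.10, 0.08 and -0.40. Of 11 other Krüppel-like factors, Klf12 was called, lower in MG (112 ± 37.6 to 26.2 ± 20.4, log2 fold change -2.85, limma adjusted p = 0.0393), with 5, 3, 3 and 3 at an unadjusted p below 0.05 in EC, PC, AC and MG and medians of -0.35, -0.02, 0.20 and -0.38.

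Genes of other vasoactive systems passed in 3 cell types. Of 12 prostanoid genes, Ptgs2, the inducible cyclooxygenase, rose in MG from 791 ± 323 to 2940 ± 517 (log2 fold change 1.96, limma adjusted p = 0.000164), together with the prostaglandin E2 receptor gene Ptger4 (1.17, 0.0131) and Ptges, the inducible prostaglandin E synthase (4.065, 0.00999), while the receptor gene Ptger3 fell (-3.47, 0.0477). Of 21 vasoactive peptide and receptor genes in the table, Apln, the ligand of the apelin receptor, rose in EC from 262 ± 212 to 2070 ± 1160 (log2 fold change 3.22, limma adjusted p = 0.0398). In PC the list held 2 that fell, Ramp1, a subunit of the calcitonin gene-related peptide receptor (1480 ± 282 to 669 ± 261, -1.21, 0.0374), and Npy1r, a neuropeptide Y receptor (6700 ± 1170 to 2740 ± 1250, -1.39, 0.0244). Each of these 3 moved in the same direction in 6 of 6 pairs. The prostanoid medians were 0.63, 1.33, 0.33 and 0.82 in EC, PC, AC and MG and the peptide medians 0.09, 0.29, -0.12 and 0.10, and neither list was called elsewhere. Prostanoid genes at an unadjusted limma p below 0.05 were 2 of 8 tested in EC, 5 of 11 in PC, 1 of 8 in AC and 7 of 10 in MG. Peptide genes at such a p were 3 of 13, 4 of 17, 5 of 15 and 3 of 10 in the same order. Of the 6 smooth muscle markers, Mylk, which phosphorylates the myosin light chain, was called lower in PC (38600 ± 6580 to 20200 ± 5200, -0.96, limma adjusted p = 0.0361), and 5 of 6 had an unadjusted p below 0.05 there. In EC, 0 of 7 arterial and 0 of 6 venous markers were called by limma. At an unadjusted limma p below 0.05 were 3 of 7 arterial markers (Bmx, Hey1 and Gja5) and 4 of 6 venous ones (Lcn2, Slc38a5, Icam1 and Ackr1). The arterial list summed to 6809 to 9444 in cEC and 5281 to 10743 in sEC, and the venous list to 23876 to 80161 and 43256 to 116499. Lcn2 was also called higher in PC, AC and MG, so the venous sum does not measure venous cells alone. A change in the mix of vessels was not tested.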

How the data were processed

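The authors trimmed reads with Trimmomatic 0.38, aligned them to mm10 with STAR 2.6.1d, counted reads on genes with featureCounts 1.6.3 and divided the counts by DESeq2 1.18.1 size factors. The deposited normalized counts are rounded to whole numbers, so they were treated as a score and not as raw counts. SMART-Seq libraries amplify the RNA of few cells, in which low genes can be missed.

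Stroke changes were fitted per cell type with limma 3.58.1 (R 4.3.3) on log2(normalized count + 1), for genes averaging 10 or more, without a block. On this scale the added 1 draws low values together, while a library listed at 0 can still stretch a mean difference. Ednrb in PC was 4.90, against 4.28 with a pseudocount of 10 and 3.79 without replicate 1, listed at 0 contralaterally. Calls needed a p of 0.05 or less after Benjamini-Hochberg adjustment over all genes, a fold of at least 1.5 and more than 10 normalized counts in all 6 libraries of a hemisphere. Tests were two-sided. Levels and interactions came from one fit of 48 libraries without the last rule, interactions also without the fold rule. That fit treated all libraries as independent, although the 4 cell types were sorted from the same pooled tissue. No alternative paired libraries across cell types. Correlations used 100000 resamples (two-sided). The fits were tested on simulated data.

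Same-numbered libraries were taken to come from the same pooled mice, which the sample labels do not state. Their mean correlation of deviations was 0.207 in EC, 0.21 in PC, 0.375 in AC and 0.115 in MG, against -0.037, -0.042, -0.075 and -0.022 for different numbers. It was above 0.1 in 3, 4, 5 and 2 of 6 pairs in the same order, with lowest values of 0.021, -0.069, 0.022 and -0.019.

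Named were all 9 genes, called genes of the lists (at most 3 per list and cell type, by p) and the 2 most alike genes. Beyond that limit, Jun, Egr1, Fos and Fosb are all given in MG, as are Ptgs2, Ptger4, Ptges and Ptger3. Arterial and venous markers at an unadjusted limma p below 0.05 in EC are named as well. The genes and lists were chosen with earlier results of these data known. Alternatives changed the pseudocount, filter, block, fit, scaling, call rules, cell type labels and replicates used. Promoter bases after the start were not used here, nor were enrichments.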

Additional observations from a re-analysis of the deposited data

Results flagged for a closer look

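Each gene was looked at in all 8 groups of 6 libraries, 72 in all, for a library standing apart from the other 5 by more than Dixon's 95% critical value of the gap divided by the range. For normally distributed values chance gives about 1 in 20 groups, and 6 of 72 (8.33%) were found. Counts with many zeros are not normally distributed, so the 2 shares cannot be compared strictly. Ece1 was 8434 in sEC replicate 1, below the other 5 (gap over range 0.756). This is also a library low in Nos3. Edn1 was 506 in sPC replicate 6, above the other 5 (0.686), and that library had the highest endothelial marker share of its group. The others were low values near the floor or in a cell type where the gene is scarce: Edn3 at 87 in cMG replicate 4 (0.667), Ednra at 66 in cEC replicate 1 (0.848), and Nos2 at 26 in cPC replicate 5 (1) and at 14 in cAC replicate 3 (0.929). No gene had all 6 pairs higher in one cell type and all 6 lower in another.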

How the results depend on the processing

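Of 1273 recomputed values of 95 results, 1156 kept their direction and side of the threshold or stayed within 1.5 times the main count, and no value called in the report changed sign. Ednrb in MG kept its call in 16 of 17 alternatives that keep the column names. The joint fit of 48 libraries lost it (log2 fold change 2.06, adjusted p = 0.107) and left 0 genes called in MG. Ednrb in PC was called with a pseudocount of 10 (4.28, adjusted p = 0.0287), with the replicate block (4.90, adjusted p = 0.0399 with an estimated correlation and 0.04 with a term for each pair) and in the joint fit (4.90, adjusted p = 0.000206), which gave 1, 1, 1 and 2 genes called in PC. In the joint fit Edn1 in PC was called too (2.84, adjusted p = 0.00672). Klf4 in MG was called with the replicate block and an estimated correlation (-0.96, adjusted p = 0.0409) and with a filter at a mean of 50 (-0.96, adjusted p = 0.0487), for 2 genes in MG in both. The block changed no other call of these genes. The Ednrb interaction of PC against AC was called with a pseudocount of 10 (1 gene). The cause was not tested in any of these.

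Values that were not called changed sign: Klf2 with replicates 1 to 4 only, to -0.44 in EC and -0.25 in PC, Edn3 in PC to -0.024 and Ednra in MG to 0.17 with a pseudocount of 10, and Ednrb in AC to 0.026 after rescaling. If the sample titles were followed in place of the column names, sPC and sMG would be exchanged and the calls would mix cell type with stroke: 4 genes in PC (Edn1 at 3.03, Ece1 at -2.66, Ednra at -8.38 and Klf4 at -1.05) and 4 in MG (Ednrb at 5.12, Ece1 at 3.085, Ednra at 7.69 and Nos3 at 2.055). Not called there were Edn3 at -1.67, Nos3 at -1.45 and Klf2 at -0.91 in PC, and Edn3 at 1.27, Klf2 at 0.485 and Klf4 at 0.33 in MG, which changed sign. Interactions called would then number 3, 3, 4, 6 and 3 of 9 (EC against PC, EC against MG, PC against AC, PC against MG, AC against MG), and that of Ednrb for PC against MG would be -3.28.

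With each replicate left out in turn, the stroke change ranged in EC from -0.27 to 2.03 for Ednra, from -0.082 to 0.65 for Nos3 and from -0.20 to 0.39 for Klf2. In PC it ranged from -0.705 to 0.955 for Edn3, from -0.22 to 0.063 for Ece1, from 3.79 to 5.48 for Ednrb and from -0.027 to 1.08 for Klf2, with 0 to 1 genes called. In AC it ranged from -0.067 to 0.30 for Edn1, from -1.50 to 0.15 for Edn3, from -0.48 to 0.094 for Ednra, from -0.12 to 0.088 for Ednrb and from -0.70 to 0.15 for Klf2. In MG it ranged from -1.08 to 0.605 for Ednra, from -0.74 to 0.56 for Nos3 and from -1.24 to -0.715 for Klf4, with 1 to 2 called. The PC against AC interaction gave 0 to 1. Ednrb in PC was called without replicate 1 (3.79, adjusted p = 0.0375) and Klf4 in MG without replicate 2 (-1.24, adjusted p = 0.0126). Among levels, Klf2 in EC against PC lost its call without replicate 2, 4, 5 or 6 and with replicates 1 to 4 alone, Klf2 in EC against MG without replicate 5 and with replicates 1 to 4 alone, and Edn1 in PC against AC without replicate 3, 4 or 6, with replicates 1 to 4 alone and with a pseudocount of 10. Values of Nos2, Edn3 and Ednra outside their highest cell type reach below the floor of 3 reads, and Nos2 was listed at 0 in 5 of 6 cPC, 4 of 6 cAC and 4 of 6 cMG libraries, so smaller differences there were not detectable at this depth.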
